A study of Capra hircus with 20 samples.

Results

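The genes described here take apart, restrain or cross-link the extracellular matrix of cultured goat cells. They comprise 5 matrix metalloproteinases (MMP2, MMP11, MMP14, MMP16 and MMP19), 3 tissue inhibitors of metalloproteinases (TIMP1, TIMP2 and TIMP3) and 2 lysyl oxidases (LOX and LOXL2). They were picked by name from the mRNA table, with earlier results of these data known, and the transcripts of each symbol were summed. The 10 genes stand for 12 of the 43766 mRNA transcripts and for 10 of the 20587 gene symbols. LOX and TIMP1 have 2 transcripts each, and the other 8 genes have 1. All 10 passed the minimum of 1 FPKM, taken as a mean of all libraries, and were tested among 11432 symbols.

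Matrix metalloproteinases are zinc-dependent proteases that cleave collagens, other matrix proteins and cell-surface proteins, and most are made as inactive proforms. TIMPs are secreted proteins that bind the active site of these proteases and block it, and TIMP2 also takes part with MMP14 in the activation of proMMP2 at the cell surface. Lysyl oxidases are copper-dependent enzymes that oxidise lysine residues of collagen and elastin, the first step in the covalent cross-linking of fibres. In fat depots the matrix is remodelled while preadipocytes round up and fill with lipid.

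The cells came from 5 male Jianzhou Daer goats (Capra hircus) aged 7 days, as the study's methods give them. Intramuscular preadipocytes (IMPA) were isolated from the longissimus dorsi muscle and subcutaneous preadipocytes (SPA) from subcutaneous fat, and both were cultured and harvested at day 0. Intramuscular adipocytes (IMA) and subcutaneous adipocytes (SA) are the same kinds of cells after 3 days in induction medium containing oleic acid. No group was kept for 3 days without induction, so induction and time in culture cannot be told apart. Changes "with induction" below are differences between these stages. Each of the 4 groups had 5 libraries of total RNA, made with a strand-specific protocol. Which goat a library came from was not given, so p-values measure the spread between libraries, which may in part be technical.

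Values are FPKM, fragment numbers scaled to transcript length and to the mapped fragments of the library, so levels can be set side by side between genes. Tests were run with limma on log2(FPKM + 1) over all 11432 symbols, with Benjamini-Hochberg adjustment of p, and a gene was called at an adjusted p under 0.05. A fold is given on the log2(FPKM + 1) scale, which understates the change of genes near 1 FPKM. The summed FPKM of the mRNA table ranged from 373889 to 413880 per library. Fragment counts are unknown, but the steps between low values gave a depth relative to IMPA1 of 0.878 to 1.21 in IMPA, 0.645 to 0.849 in IMA, 0.616 to 0.816 in SPA and 0.524 to 0.693 in SA. Relative depth was thus higher in every IMPA library than in every library of the other groups. The study's read summaries also give every IMPA library a larger mapped share of reads and a higher GC content than any other library. These differences move with each comparison that uses IMPA. In the same summaries every SA library has a smaller mapped share than every SPA and every IMA library. That difference moves with SA against SPA and with IMA against SA. The part of these library differences in the results was not tested.

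The labels were set against marker genes. Of 11 skeletal muscle markers in the table, all 11 had a mean of at least 1 FPKM in IMPA and in IMA, with summed levels of 3233 to 3711 FPKM in IMPA and 11233 to 11941 FPKM in IMA. In SPA and SA these summed levels were 6.96 to 22.8 and 7.48 to 9.46 FPKM. The satellite cell list was PAX7, PAX3, CDH15 and CHRNA1. It summed to between 54.3 and 70.8 FPKM in the intramuscular libraries and to at most 0.199 FPKM in the subcutaneous ones. From IMPA to IMA, CHRNA1 rose with the muscle markers from 17.6 to 31.3 FPKM, while CDH15 fell from 29.1 to 19.4 FPKM. The sum of this list is therefore not a measure of satellite cells alone. PAX7 was at 12.3 and 13.3 FPKM, and PAX3 at most at 0.00693 FPKM on average. Fibroblast and stromal markers summed to between 6108 and 8610 FPKM in the intramuscular libraries and to between 12136 and 13430 FPKM in the subcutaneous ones. Of 7 adipocyte markers in the table, 4 were low in all groups, with means of at most 1.03 FPKM for PPARG, 0.419 FPKM for ADIPOQ, 0.276 FPKM for PLIN1 and 1.34 FPKM for LPL. CEBPA had means of 9.23, 5.42, 5.05 and 3.91 FPKM in IMPA, IMA, SPA and SA, and the lipid droplet gene PLIN2 of 49.8, 166, 257 and 396 FPKM. The fatty acid transporter CD36 was higher after induction in intramuscular cells, at 4.91 against 0.252 FPKM (adjusted p = 2.85e-10 by limma). In subcutaneous cells it was at 0.934 against 0.0679 FPKM (adjusted p = 2.62e-05 by limma). CD36 passed the minimum of 1 FPKM only through its level in IMA. Its means in IMPA, SPA and SA lie under that minimum, so the subcutaneous difference rests on values near the floor. By the muscle markers, the intramuscular libraries hold a strong myogenic signal that the label does not name, and every difference between the depots below moves with it. The signal was also higher in every IMA library than in every IMPA library, so the intramuscular stage differences move with it as well. Its part was not tested, and in bulk RNA fewer cells of a type and less RNA per cell cannot be told apart. Proliferation markers summed to between 36.6 and 43.8 FPKM in SPA and to between 174 and 195 FPKM in SA, against 90.4 to 118 FPKM in IMPA and 91.6 to 109 FPKM in IMA. The subcutaneous stage differences thus move with the proliferation markers, whose part was not tested. Smooth muscle and myofibroblast markers summed to between 663 and 983 FPKM in the intramuscular libraries and to between 244 and 316 FPKM in the subcutaneous ones. Macrophage markers summed to between 4.42 and 12.3 FPKM and to between 12.7 and 18.2 FPKM, and endothelial markers to at most 0.648 and 1.19 FPKM, in the same order. These sums, like those of the stromal markers, did not overlap between the depots and move with the depot differences as well, and their part was not tested. The macrophage sum came mostly from CD14, with means of 5.91, 9.93, 14.45 and 12.96 FPKM in IMPA, IMA, SPA and SA. CD68 had means between 0.587 and 2.27 FPKM. PTPRC, CSF1R and AIF1 had means of at most 0.00522, 0.0408 and 0.0308 FPKM in any group. The macrophage sum therefore does not show that macrophages were present or differed between depots.

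The 10 genes covered a wide range of levels. TIMP1 was by far the most abundant, with the 2nd highest group mean of all 20587 symbols in SA and the 4th highest in SPA, against the 81st in IMA and the 122nd in IMPA. MMP2 ranked 62nd in SPA, 77th in SA, 205th in IMA and 207th in IMPA. MMP16 and, in subcutaneous cells, MMP11 were the lowest, with means between 1.36 and 2.30 FPKM. Within the 5 metalloproteinases, MMP2 held 75.4% of the summed FPKM in IMPA, 79.1% in IMA, 88.9% in SPA and 91.0% in SA, and within the 3 TIMPs, TIMP1 held 85.5%, 92.1%, 96.4% and 97.7%.

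**Figure D1:**
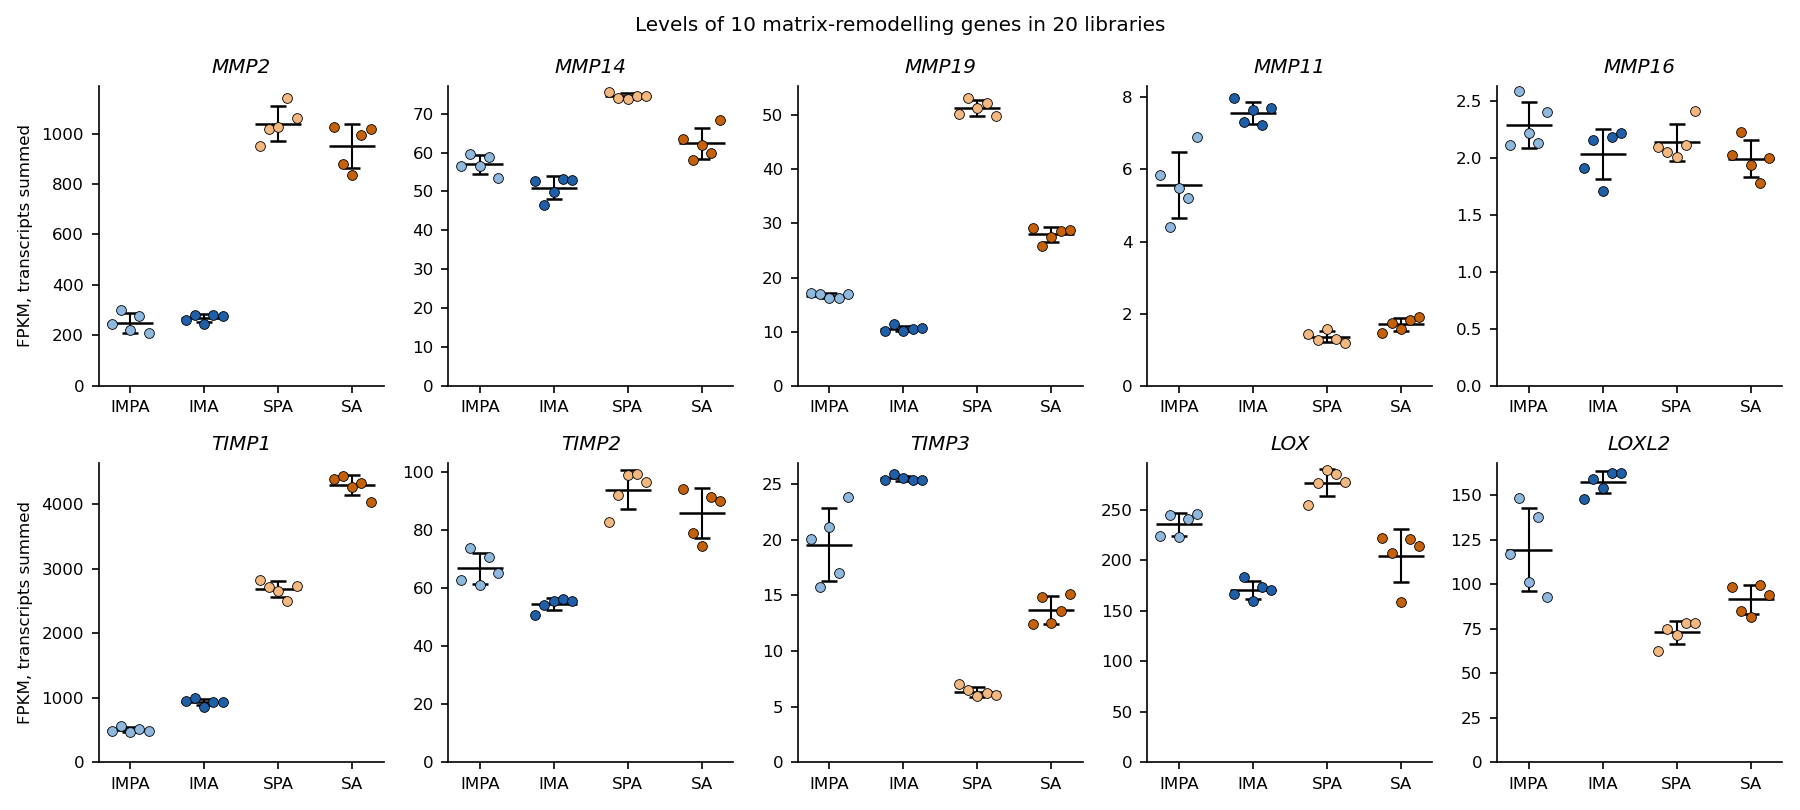
FPKM (vertical axes, linear, from 0) of each gene in the 5 libraries of IMPA, IMA, SPA and SA, drawn as points from library 1 on the left to library 5 on the right, with the group mean and SD as bars. TIMP1 separates all 4 groups, MMP2 separates only the depots, and MMP16 lies between 1.72 and 2.59 FPKM in all 20 libraries.

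MMP2, the secreted gelatinase A that cleaves denatured and basement-membrane collagens, differed between depots and not detectably between stages. IMPA libraries 1 to 5 held 244, 299, 220.0, 278 and 208.5 FPKM, and the IMA libraries 259, 281, 245, 283 and 275 FPKM. In SPA the values were 949.7, 1018, 1025, 1142 and 1062 FPKM, and in SA 1027, 879, 836, 994 and 1018 FPKM. Every subcutaneous library thus lay above every intramuscular one, and the stages overlapped in both depots. MMP2 was 4.18-fold lower in IMPA than in SPA (log2 difference -2.06 ± 0.09 SE, adjusted p = 4.54e-10) and 3.52-fold lower in IMA than in SA (-1.82 ± 0.06, adjusted p = 4.41e-12). The stage differences were 0.11 in intramuscular cells (95% confidence interval -0.08 to 0.31, adjusted p = 0.291) and -0.13 in subcutaneous cells (-0.28 to 0.02, adjusted p = 0.128). These intervals leave room for a modest change in either depot, and MMP2 passed the test between stages under some scalings, with adjusted p from 0.047 to 0.756 over the alternatives in intramuscular cells and from 0.0384 to 0.277 in subcutaneous cells.

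MMP14 is the membrane-anchored collagenase MT1-MMP, which activates proMMP2. It was lower after induction in both depots by a small amount. The IMPA libraries held 56.6, 59.5, 56.5, 58.9 and 53.4 FPKM against 52.6, 46.5, 49.7, 53.2 and 53.0 FPKM in IMA. In SPA the 5 values lay close together at 75.6, 73.9, 73.8, 74.7 and 74.5 FPKM, and SA held 63.4, 58.0, 61.9, 59.9 and 68.4 FPKM. Neither pair of stages overlapped, although in intramuscular cells the highest IMA library lay just under the lowest IMPA library. The fall was 1.12-fold in intramuscular cells (log2 difference -0.16 ± 0.05, adjusted p = 0.00979) and 1.19-fold in subcutaneous cells (-0.26 ± 0.04, adjusted p = 0.000204). In intramuscular cells the call was lost under median-of-ratios scaling, where the difference was -0.04 (adjusted p = 0.521, against 0.00263 at the lowest over the alternatives). MMP14 was also lower in intramuscular cells at both stages, by 1.303-fold before induction (-0.38 ± 0.03, adjusted p = 3.69e-07) and 1.22-fold after it (-0.28 ± 0.05, adjusted p = 0.000222).

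MMP19, a secreted metalloproteinase that cleaves basement-membrane components, had the 4 groups in a clear order with no overlap between any of them. Its libraries held 17.1, 17.0, 16.2, 16.2 and 17.0 FPKM in IMPA and 10.1, 11.4, 10.1, 10.6 and 10.7 FPKM in IMA. The SPA values were 50.2, 53.2, 51.3, 52.2 and 49.9 FPKM, and the SA values 29.1, 25.8, 27.5, 28.5 and 28.8 FPKM. MMP19 was therefore highest in subcutaneous preadipocytes and lowest in intramuscular adipocytes. It fell 1.53-fold with induction in intramuscular cells (log2 difference -0.61 ± 0.04, adjusted p = 2.11e-07) and 1.81-fold in subcutaneous cells (-0.85 ± 0.04, adjusted p = 2.45e-09). The depot difference was 2.96-fold before induction (-1.57 ± 0.03, adjusted p = 4.01e-13) and 2.50-fold after it (-1.32 ± 0.05, adjusted p = 4.81e-12). The fall of MMP19 between the stages was larger in subcutaneous cells, with a difference between the log2 changes of 0.24 ± 0.05 (adjusted p = 0.000713).

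MMP11, stromelysin 3, is activated inside the cell by furin and is known from remodelling stroma. It was called higher in intramuscular cells at both stages. IMPA libraries held 5.84, 4.41, 5.50, 5.21 and 6.89 FPKM, and IMA libraries 7.97, 7.31, 7.63, 7.22 and 7.71 FPKM. Subcutaneous libraries held 1.45, 1.28, 1.59, 1.29 and 1.19 FPKM in SPA and 1.48, 1.74, 1.57, 1.84 and 1.91 FPKM in SA. The stages did not overlap in intramuscular cells, and they overlapped in subcutaneous cells, where SPA3 lay above SA1 and SA3. MMP11 was 2.77-fold higher in IMPA than in SPA (log2 difference 1.47 ± 0.09, adjusted p = 9.47e-09) and 3.17-fold higher in IMA than in SA (1.66 ± 0.06, adjusted p = 3.91e-12). With induction it rose 1.31-fold in intramuscular cells (0.39 ± 0.08, adjusted p = 0.0015) and 1.15-fold in subcutaneous cells (0.20 ± 0.06, adjusted p = 0.0158). The subcutaneous rise was close to the threshold, with adjusted p from 0.00808 to 0.0735 over the alternatives.

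MMP16, the membrane-type enzyme MT3-MMP, was low in every library and passed no test. The libraries held 2.12, 2.59, 2.22, 2.13 and 2.41 FPKM in IMPA, 1.91, 2.16, 1.72, 2.18 and 2.22 FPKM in IMA, 2.10, 2.05, 2.01, 2.12 and 2.41 FPKM in SPA, and 2.02, 2.23, 1.94, 1.78 and 2.00 FPKM in SA. All 4 groups overlapped. The log2 differences were -0.12 between the stages in intramuscular cells (95% confidence interval -0.26 to 0.02), -0.07 in subcutaneous cells (-0.18 to 0.05), 0.07 between the depots before induction (-0.05 to 0.19) and 0.02 after it (-0.12 to 0.16). The sign of the depot differences turned under quantile normalization.

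TIMP1, a secreted inhibitor of most metalloproteinases with a weak grip on MMP14, rose with induction in both depots and was several-fold higher in subcutaneous cells. IMPA libraries held 492, 558, 478, 524 and 493 FPKM, and IMA libraries 949, 992, 852, 942 and 929 FPKM. In SPA the values were 2820.1, 2717.5, 2656, 2502.5 and 2726 FPKM, and in SA 4383, 4431, 4271.5, 4335 and 4034 FPKM. The 4 groups were apart from each other with no overlap, in the order SA, SPA, IMA, IMPA. After induction TIMP1 was 1.83-fold higher in intramuscular cells (log2 difference 0.87 ± 0.05, adjusted p = 6.97e-08) and 1.60-fold higher in subcutaneous cells (0.68 ± 0.05, adjusted p = 2.95e-07). TIMP1 was 5.27-fold lower in IMPA than in SPA (-2.40 ± 0.05, adjusted p = 2.35e-13) and 4.60-fold lower in IMA than in SA (-2.20 ± 0.05, adjusted p = 2.39e-14), the largest depot differences among the 10 genes. The rise was larger in intramuscular cells by 0.20 ± 0.07 log2 units (adjusted p = 0.0171), a call that was lost without SPA1 and SA5 (0.16, adjusted p = 0.0612, against 0.000321 at the lowest over the alternatives). Between 99.85% and 99.98% of the TIMP1 level came from 1 of its transcripts in every library.

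TIMP2, which inhibits metalloproteinases and also bridges proMMP2 to MMP14, did not follow TIMP1. The IMPA values were 62.9, 73.9, 60.9, 70.8 and 65.2 FPKM, and the IMA values 50.8, 54.2, 55.5, 56.4 and 55.7 FPKM. SPA libraries held 82.8, 92.1, 98.8, 99.3 and 96.3 FPKM, and SA libraries 94.1, 78.8, 74.4, 91.2 and 90.0 FPKM. The stages were apart in intramuscular cells and overlapped in subcutaneous cells. TIMP2 fell 1.22-fold with induction in intramuscular cells (log2 difference -0.28 ± 0.05, adjusted p = 0.000735), and in subcutaneous cells the difference was -0.13 (95% confidence interval -0.29 to 0.02, adjusted p = 0.133). The difference between these changes was -0.15 ± 0.09 and did not pass the test (adjusted p = 0.175). Leaving out SPA1, the SPA library with the lowest TIMP2, brought the subcutaneous difference to -0.18 (adjusted p = 0.0459, with a range over the alternatives from 0.0398 to 0.294). TIMP2 was lower in intramuscular cells by 1.40-fold before induction (-0.49 ± 0.06, adjusted p = 1.39e-05) and by 1.56-fold after it (-0.64 ± 0.06, adjusted p = 4.54e-07).

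TIMP3, the TIMP that stays bound to the matrix and also inhibits ADAM and ADAMTS proteases, had the opposite depot order to TIMP1 and TIMP2. IMPA libraries held 20.1, 15.7, 21.1, 17.0 and 23.8 FPKM, and the IMA libraries lay tightly at 25.3, 25.9, 25.5, 25.3 and 25.4 FPKM. In SPA the values were 7.05, 6.49, 5.93, 6.20 and 6.02 FPKM, and in SA 12.4, 14.8, 12.5, 13.6 and 15.1 FPKM. No 2 groups overlapped, in the order IMA, IMPA, SA, SPA. TIMP3 rose 2.00-fold with induction in subcutaneous cells (log2 difference 1.00 ± 0.06, adjusted p = 7.93e-08) and 1.303-fold in intramuscular cells (0.38 ± 0.09, adjusted p = 0.00296). This was the largest difference between depots in the response of the 10 genes, at -0.62 ± 0.11 log2 units (adjusted p = 0.000105). TIMP3 was 2.77-fold higher in IMPA than in SPA (1.47 ± 0.09, adjusted p = 1.85e-08) and 1.81-fold higher in IMA than in SA (0.85 ± 0.05, adjusted p = 4.30e-09).

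LOX, the founding lysyl oxidase, fell with induction in both depots. The libraries held 224, 244, 223, 241 and 246 FPKM in IMPA and 167, 183, 159, 173 and 170.2 FPKM in IMA. The SPA values were 255, 276, 289.6, 285 and 278 FPKM, and the SA values 223, 207, 158, 221 and 214 FPKM. The stages did not overlap in either depot, and SA3 lay well under the other SA libraries, at the level of IMA. LOX fell 1.38-fold in intramuscular cells (log2 difference -0.46 ± 0.04, adjusted p = 4.54e-06) and 1.36-fold in subcutaneous cells (-0.44 ± 0.08, adjusted p = 0.000751), and the difference between these changes was -0.02 (95% confidence interval -0.23 to 0.19, adjusted p = 0.878). LOX was 1.17-fold lower in IMPA than in SPA (-0.23 ± 0.04, adjusted p = 0.000385) and 1.19-fold lower in IMA than in SA (-0.25 ± 0.08, adjusted p = 0.0125). The last call was lost under median-of-ratios scaling (-0.16, adjusted p = 0.107) and upper-quartile scaling (-0.19, adjusted p = 0.0511), and adjusted p went down to 1.33e-05 over the alternatives.

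The low LOX value in SA3 came mostly from 1 of the 2 transcripts. XM_013965370.2 was at 0.63 FPKM in SA3 and between 35.2 and 76.4 FPKM in the other 19 libraries, where it made up 20.7% to 26.8% of the LOX level. XM_005682716.3, the more abundant transcript, was at 158 FPKM in SA3, a little under the 162 to 168 FPKM of the other SA libraries. On that transcript alone, a setting added once these values were known, LOX in IMA against IMPA was -0.47 (adjusted p = 6.26e-06), in SA against SPA -0.35 (adjusted p = 1.35e-06) and in IMA against SA -0.32 (adjusted p = 1.33e-05). The difference between the stage changes was then -0.12 (adjusted p = 0.093), and it was -0.11 when SA3 was left out of the summed values (adjusted p = 0.149). Both transcripts belong to 1 gene, and how the estimation divided its reads between them in SA3 was not tested.

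**Figure D2:**
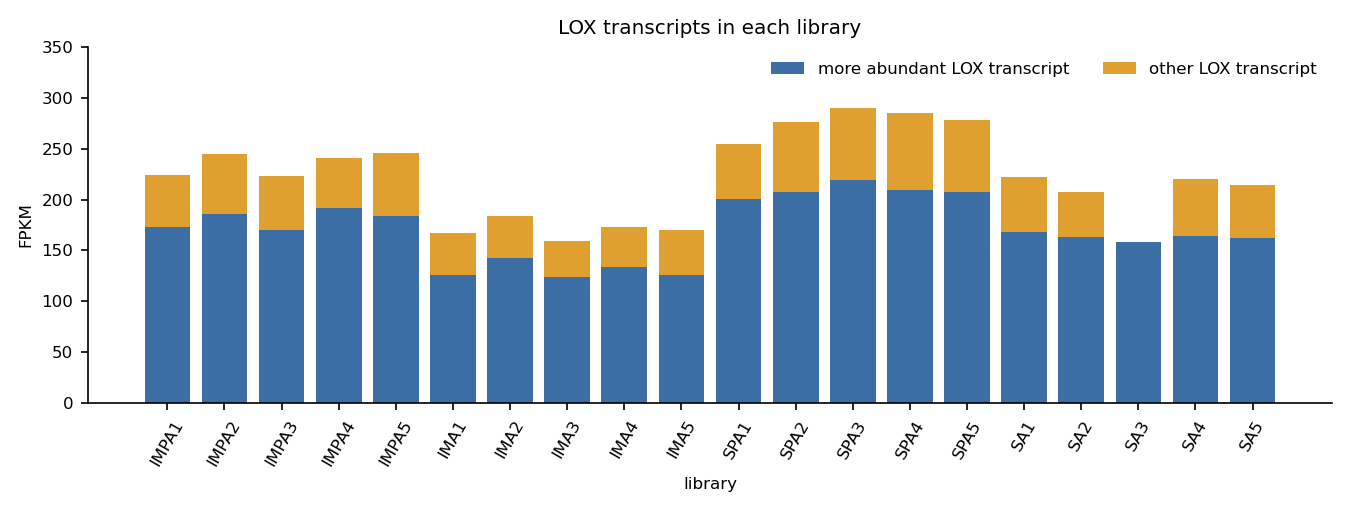
FPKM of the 2 LOX transcripts stacked in each of the 20 libraries (horizontal axis), with the axis from 0. The other transcript forms the upper part of each bar except in SA3, where it was at 0.63 FPKM.

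LOXL2, a lysyl oxidase-like enzyme active on basement-membrane collagen IV, moved against LOX. IMPA libraries were spread widely at 117, 148, 102, 138 and 92.9 FPKM, while the IMA libraries held 148, 159, 154, 163 and 162 FPKM. In SPA the values were 62.8, 75.1, 71.4, 78.3 and 78.5 FPKM, and in SA 98.4, 84.9, 81.7, 99.7 and 94.1 FPKM. The stages were apart in subcutaneous cells, and in intramuscular cells IMPA2 lay just above IMA1. LOXL2 rose 1.33-fold in intramuscular cells (log2 difference 0.41 ± 0.11, adjusted p = 0.00598) and 1.25-fold in subcutaneous cells (0.32 ± 0.07, adjusted p = 0.00242). It was higher in intramuscular cells by 1.60-fold before induction (0.68 ± 0.12, adjusted p = 0.000168) and by 1.71-fold after it (0.77 ± 0.06, adjusted p = 1.99e-08).

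Read by comparison, the question of IMA against IMPA was what differs in intramuscular cells after 3 days of induction. Of the 10 genes, 4 were higher (TIMP1, LOXL2, MMP11 and TIMP3), 4 were lower (MMP19, LOX, TIMP2 and MMP14) and 2 did not pass. Of all genes tested, 19.9% were higher and 40.2% lower, 2276 and 4591 genes, so most genes were called in this comparison. Groups did not overlap for 7 of the 10 genes, against 43.5% of all genes. The median absolute log2 difference was 0.39 over the 10 genes and 0.20 over all genes, and the medians with sign were -0.0017 and -0.0852. The split of all genes turned to 3534 higher and 2846 lower under median-of-ratios scaling, which moved the median of all genes by 0.106 log2 units, and under it 5 of the 10 genes were higher and 3 lower, MMP2 having joined and MMP14 left. The directions of TIMP1, TIMP3, LOXL2, MMP11, MMP19, LOX and TIMP2 held under each of the 4 scaling alternatives.

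For SA against SPA, the same question in subcutaneous cells, 4 of the 10 genes were higher (TIMP3, TIMP1, LOXL2 and MMP11), 3 were lower (MMP19, LOX and MMP14) and MMP2, MMP16 and TIMP2 did not pass. The background was 26.1% higher and 26.0% lower, and 6 of the 10 genes had groups that did not overlap against 38.8% of all genes. The median absolute log2 difference was 0.29 over the 10 genes and 0.16 over all genes. With every library scaled to the same mRNA sum, the split of all genes went from 2982 higher and 2975 lower to 2327 and 4052, and of the 10 genes 3 were then higher and 4 lower, with MMP2 called and MMP11 not. The 2 comparisons use separate libraries, and TIMP1, TIMP3, LOXL2 and MMP11 were higher and MMP19, LOX and MMP14 lower after induction in both.

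Between the depots before induction, IMPA against SPA, 3 of the 10 genes were higher (TIMP3, MMP11 and LOXL2), 6 were lower (TIMP1, MMP2, MMP19, TIMP2, MMP14 and LOX) and MMP16 did not pass. The background was 42.3% higher and 32.9% lower, and 9 of the 10 genes had groups that did not overlap against 63.4% of all genes. After induction, IMA against SA, the same 3 genes were higher and the same 6 lower, beside a background of 29.0% higher and 43.4% lower, and 8 of the 10 had groups that did not overlap against 58.6%. The median absolute log2 differences were 1.07 and 0.81 over the 10 genes against 0.31 and 0.30 over all genes. The limits of such contrasts given above hold for both comparisons. These comparisons share each of their groups with a comparison between stages, so they are not independent of the values above. For IMA against SA the split of all genes was 3310 higher and 4967 lower and turned to 4043 and 4027 under median-of-ratios scaling. The directions of the 9 called genes stayed under each scaling, although the LOX call was lost after induction as given above.

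The stage change differed between depots for 3 of the 10 genes. MMP19 and TIMP1 had a more positive log2 change in intramuscular cells and TIMP3 a less positive one. Of all genes tested 20.7% had a higher and 34.6% a lower change in intramuscular cells. A share of 3 in 10 lies under that background. The split of all genes, 2368 and 3951, turned to 3583 and 2618 under median-of-ratios scaling, which shifted the median by 0.122, and to 3027 and 3221 under quantile normalization. Under median-of-ratios scaling MMP2 (0.39, adjusted p = 0.0115), MMP11 (0.32, adjusted p = 0.016) and MMP14 (0.24, adjusted p = 0.00458) passed as well. The interaction of MMP2 was 0.25 ± 0.12 (adjusted p = 0.0848, from 0.0115 to 0.168 over the alternatives) and passed when IMPA2 (0.31, adjusted p = 0.0183) or IMPA4 (0.29, adjusted p = 0.0468) was left out. That of MMP11 was 0.20 ± 0.11 (adjusted p = 0.124) and passed without IMPA5 (0.27, adjusted p = 0.0207).

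**Figure D3:**
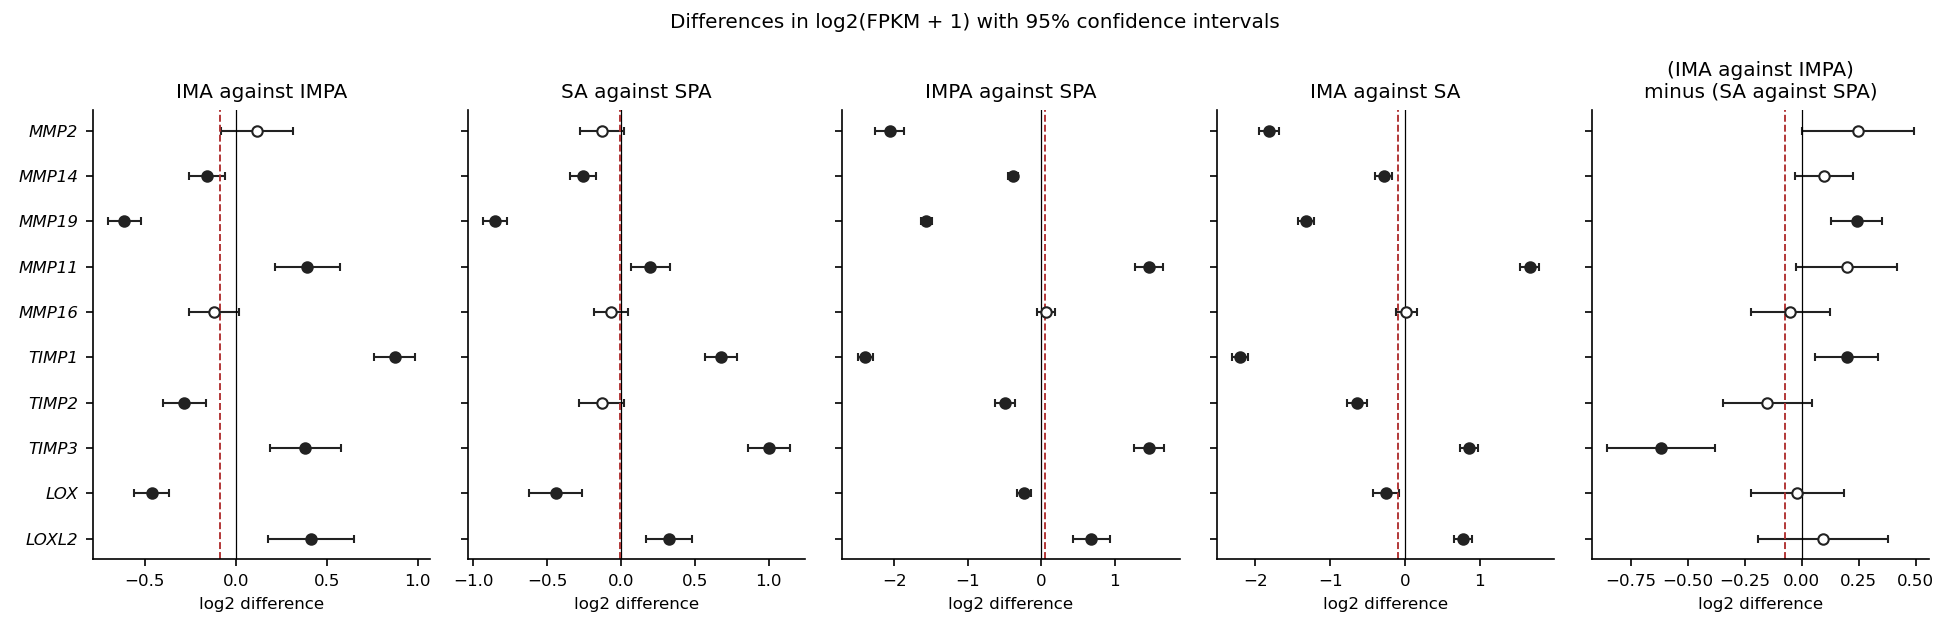
Log2 differences of the 10 genes (points) with 95% confidence intervals in the 4 comparisons and in the difference between the stage changes, on horizontal axes of differing range. Filled points have an adjusted p under 0.05, and the dashed red line marks the median of all 11432 genes. Depot differences reach 2.40 log2 units for TIMP1, while stage differences stay within 1.00.

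Ratios within a library do not move with the scaling of libraries and were taken as values with no test. The 3 TIMPs summed to 1.77, 1.69, 1.86, 1.70 and 2.02 times the 5 metalloproteinases in IMPA libraries 1 to 5 and to 3.09, 3.08, 2.97, 2.88 and 2.90 times in IMA. In SPA the ratio was 2.70, 2.45, 2.39, 2.05 and 2.38, and in SA 4.00, 4.68, 4.69, 4.09 and 3.70. The ratio was higher after induction in both depots with no overlap. The summed TIMPs were 595 ± 34.9 FPKM in IMPA, 1013 ± 50.5 in IMA, 2785 ± 112 in SPA and 4390.3 ± 154 in SA (SD, n = 5), whereas the summed metalloproteinases were 332 ± 39.9, 340 ± 16.7, 1169 ± 70.4 and 1045 ± 90.7 FPKM. The move of the ratio thus sat mostly in its TIMP side, and there in TIMP1.

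Among single pairs, TIMP1 stood at 7.64 ± 0.19 times TIMP2 in IMPA, 17.1 ± 1.35 in IMA, 28.8 ± 3.35 in SPA and 50.5 ± 5.85 in SA, with no overlap between any of the groups. MMP2 to TIMP2 was nearly the same at both subcutaneous stages, 11.1 ± 0.46 in SPA and 11.1 ± 0.19 in SA, and was 3.73 ± 0.34 in IMPA and 4.93 ± 0.30 in IMA. MMP14 to TIMP2 stayed between 0.656 and 1.04 in all 20 libraries. LOX to LOXL2 fell from 2.03 ± 0.40 in IMPA to 1.09 ± 0.05 in IMA and from 3.795 ± 0.24 in SPA to 2.23 ± 0.18 in SA, again with no overlap between stages. Of these ratios MMP14 to TIMP2 varied least over the groups.

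**Figure D4:**
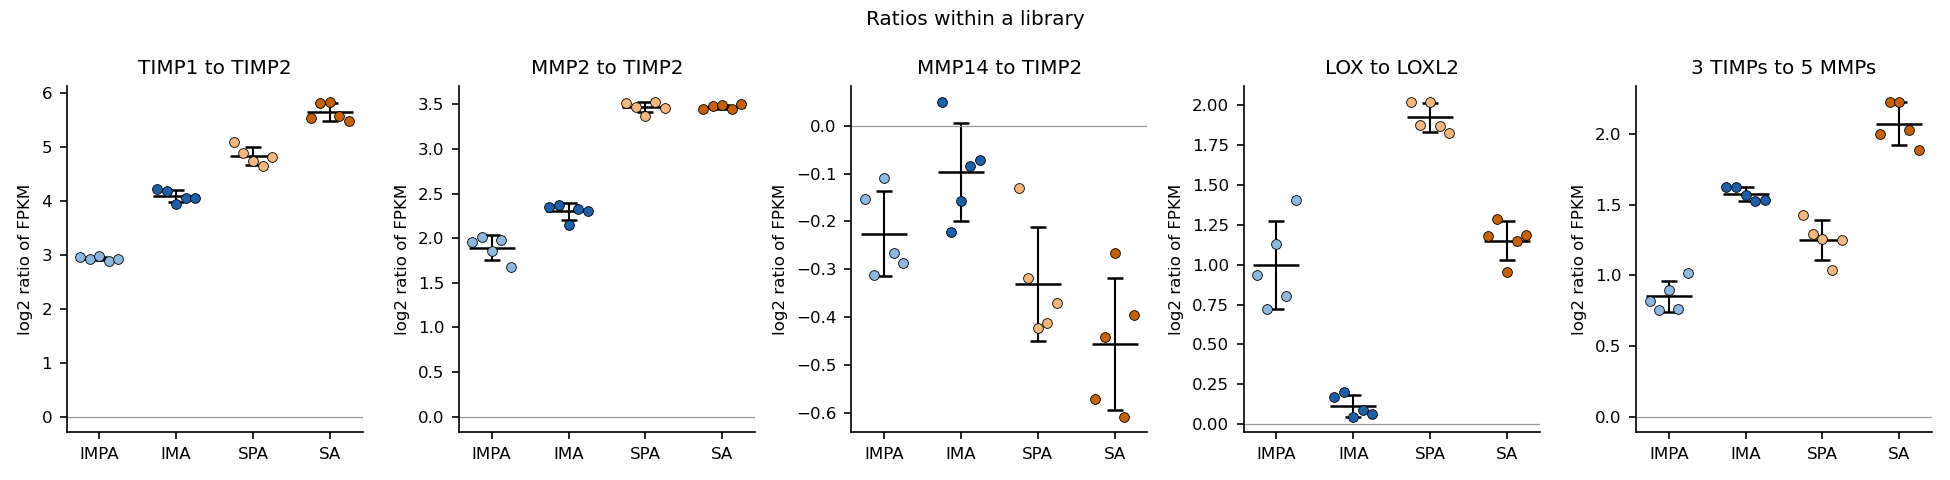
Log2 of 5 ratios of FPKM within a library (vertical axes) in the 5 libraries of each group, with the mean and SD as bars and a grey line at equal levels. TIMP1 to TIMP2 separates all groups, MMP2 to TIMP2 separates the depots, and LOX to LOXL2 is lower after induction in each depot.

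For LOXL2, TIMP3, MMP11 and MMP2 the relative spread was larger in IMPA than in the other groups. The coefficient of variation in IMPA was 19.6% for LOXL2, 16.6% for TIMP3, 16.3% for MMP11 and 15.4% for MMP2, against 3.93%, 0.983%, 4.04% and 5.99% in IMA. For TIMP1 it was also largest in IMPA, but by little, at 6.33% against 5.47% in IMA. LOXL2 and MMP2 ranked the libraries in 1 order, IMPA2, IMPA4, IMPA1, IMPA3 and IMPA5 from high to low, and TIMP3 ranked them in the reverse order. The stromal genes DCN and COL3A1 followed the order of LOXL2, from 809 to 548 FPKM and from 5528 to 3417 FPKM, as did PDGFRA, from 162 to 131 FPKM. They were chosen from 9 stromal markers, of which COL1A2 varied little in IMPA, between 1575 and 1673 FPKM. MYOG was at 582 FPKM in IMPA2 and 727 FPKM in IMPA5. Of other muscle markers, DES was lowest in IMPA1 at 521 FPKM, and MYLPF varied little, between 1002.8 and 1104.5 FPKM. Relative depth followed the order of TIMP3, with 0.878 in IMPA2, 0.977 in IMPA4, 1.00 in IMPA1, 1.01 in IMPA3 and 1.21 in IMPA5, and the study's alignment summary gives mapped shares of the reads in that same order. Neither the marker levels nor the depth were tested for their part in this spread.

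**Figure D5:**
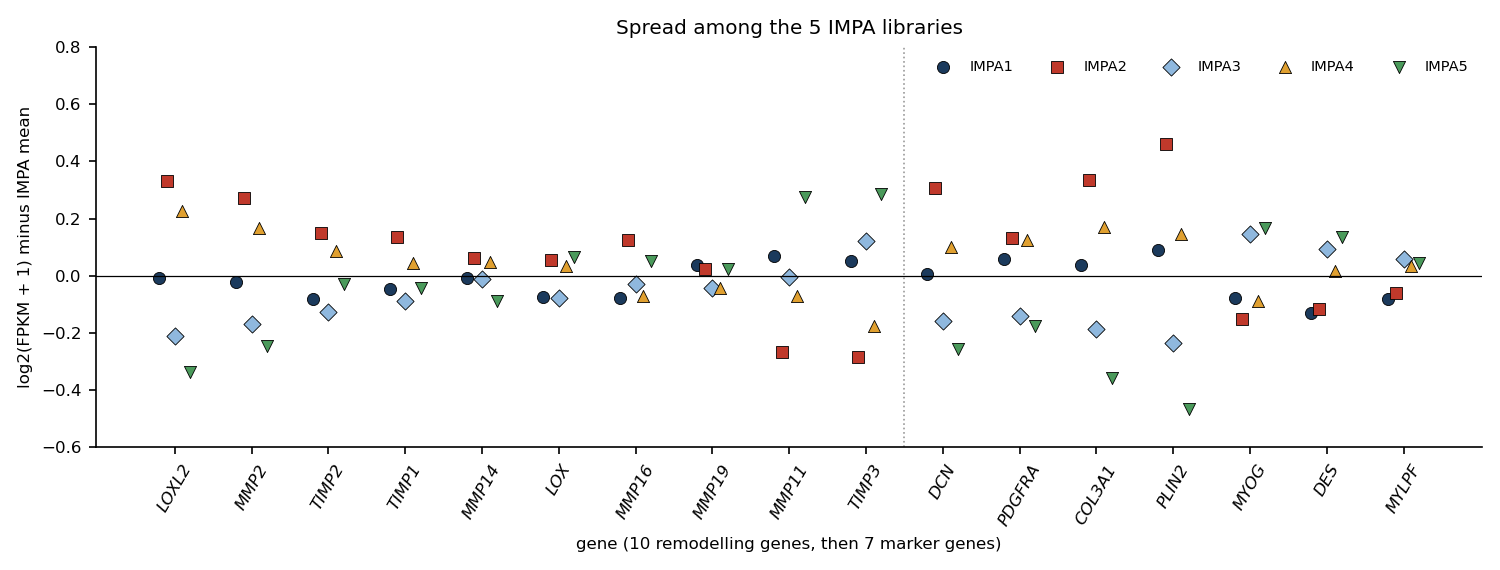
Deviation of each IMPA library from the mean of the 5 IMPA libraries in log2(FPKM + 1) (vertical axis) for the 10 genes and, right of the dotted line, for 7 marker genes. IMPA2 is high and IMPA5 low in LOXL2, MMP2, DCN, PDGFRA, COL3A1 and PLIN2, and the reverse holds for MMP11, TIMP3 and MYOG.

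For LOX, TIMP2, MMP14, MMP16 and MMP19 the largest coefficient of variation lay outside IMPA, at 12.97% for LOX and 9.997% for TIMP2 in SA, 6.38% for MMP14 in SA, 10.6% for MMP16 in IMA and 4.75% for MMP19 in SA. SPA1 was the lowest of its group in MMP2, TIMP2, LOX and LOXL2 and the highest in TIMP1, TIMP3 and MMP14. SA2 and SA3 were the lowest of their group in MMP2, TIMP2 and LOXL2. MMP14 had the smallest spread of any gene and group but TIMP3 in IMA, with a coefficient of variation of 0.989% in SPA.

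Genes of related function were described from lists, and no list was tested as a set. Their counts, here and below, stand beside the shares of all genes tested. These shares were 19.9% higher and 40.2% lower in IMA against IMPA and 26.1% and 26.0% in SA against SPA. Between the depots they were 42.3% and 32.9% in IMPA against SPA and 29.0% and 43.4% in IMA against SA. Of 18 other metalloproteinases, 15 were in the table and only MMP1, MMP3, MMP15 and MMP23B reached a mean of 1 FPKM over the libraries. MMP1, the interstitial collagenase, was at 102 ± 7.30 FPKM in SPA and 42.1 ± 4.16 in SA, and at 0.339 ± 0.0968 in IMPA and 0.881 ± 0.230 in IMA. It fell with induction in subcutaneous cells (log2 difference -1.26, adjusted p = 1.38e-08), and the difference in intramuscular cells was 0.48 (adjusted p = 0.000545). MMP1 passed the minimum of 1 FPKM only through its subcutaneous levels. Both intramuscular means lie under it, so the intramuscular difference rests on values near the floor. MMP3, stromelysin 1, was likewise higher in subcutaneous cells, with 2.69 ± 0.396 FPKM in SPA and 1.58 ± 0.357 in SA against at most 0.167 in any intramuscular library. MMP15, the membrane-type enzyme MT2-MMP, had the opposite order, with 7.32 ± 1.17 FPKM in IMPA, 9.10 ± 0.748 in IMA, 0.318 ± 0.117 in SPA and 0.790 ± 0.0931 in SA. The gelatinase MMP9 had group means of at most 1.07 FPKM, so MMP2 carried nearly all of the gelatinase transcript level. Over the 4 tested genes, 2 were higher and none lower in IMA against IMPA, and 2 were higher and 2 lower in each of the other 3 comparisons.

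Among other inhibitors, TIMP4 was at most at 0.279 FPKM on average. TFPI2, a secreted serine protease inhibitor that is also known to restrain metalloproteinases, was abundant and, like TIMP1, rose with induction in both depots. Its means were 386 ± 61.4 FPKM in IMPA, 535 ± 84.7 in IMA, 2114 ± 98.3 in SPA and 2714 ± 105 in SA. The log2 difference was 0.47 in IMA against IMPA (adjusted p = 0.00814, groups overlapping), 0.36 in SA against SPA (adjusted p = 5.87e-05) and -2.47 in IMPA against SPA (adjusted p = 1.34e-10). The membrane-anchored inhibitor RECK, the other tested gene of this list, was at 9.04 to 14.6 FPKM on average, higher in SA than in SPA and not called between IMA and IMPA, and both genes were lower in intramuscular cells at both stages.

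Of 8 genes of plasminogen activation and of the induction or activation of metalloproteinases, 7 were tested. In IMA against IMPA 2 were higher and 5 lower, in SA against SPA 1 was higher and 3 lower, in IMPA against SPA 1 was higher and 4 lower, and in IMA against SA 2 were higher and 5 lower. PLAU, the urokinase that activates plasminogen, was higher in intramuscular cells, with 43.0 ± 6.30 FPKM in IMPA, 36.5 ± 2.21 in IMA, 15.4 ± 1.51 in SPA and 9.70 ± 0.751 in SA. SERPINE2, an inhibitor of plasminogen activators, rose in intramuscular cells from 28.1 ± 7.28 to 45.0 ± 4.62 FPKM (0.69, adjusted p = 0.00182) and was at 129 ± 15.3 and 108 ± 23.4 FPKM in SPA and SA.

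For the other lysyl oxidases, LOXL1 and LOXL3 were tested, LOXL3 was higher and LOXL1 lower in IMA against IMPA, and both were lower in SA against SPA. In IMPA against SPA LOXL1 was lower and LOXL3 not called, and in IMA against SA LOXL3 was higher and LOXL1 lower. Of 15 genes of procollagen processing and cross-linking, 14 were tested, and 4 were higher and 6 lower in IMA against IMPA, 3 and 5 in SA against SPA, 4 and 8 in IMPA against SPA, and 5 and 7 in IMA against SA. FN1, fibronectin, which carries matrix assembly, rose from 271 ± 43.9 to 781 ± 64.5 FPKM in intramuscular cells (log2 difference 1.54, adjusted p = 1.52e-07) and was at 565 ± 50.9 and 650.3 ± 114 FPKM in SPA and SA (0.19, adjusted p = 0.184). POSTN, periostin, a matricellular protein, rose from 31.9 ± 1.23 to 66.1 ± 4.90 FPKM in intramuscular cells (1.03, adjusted p = 1.36e-08) and from 12.5 ± 0.579 to 16.0 ± 1.40 FPKM in subcutaneous cells (0.32, adjusted p = 0.000525). PCOLCE2, an enhancer of procollagen C-proteinase, was at 52.0 ± 6.17 FPKM in IMPA, 38.04 ± 4.202 in IMA, 151 ± 7.21 in SPA and 172 ± 8.77 in SA. TLL2, a protease of the procollagen C-proteinase family, had means of 4.14, 2.63, 0.202 and 0.0689 FPKM in the same groups.

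Of 24 ADAM and ADAMTS proteases, the family that TIMP3 also restrains, 19 were tested. In IMA against IMPA 4 were higher and 12 lower, in SA against SPA 3 and 8, in IMPA against SPA 9 and 7, and in IMA against SA 8 and 7. ADAMTS1, which cleaves versican, fell in intramuscular cells from 43.9 ± 2.03 to 16.0 ± 0.768 FPKM (log2 difference -1.41, adjusted p = 2.73e-10) and was at 0.585 ± 0.131 and 0.728 ± 0.275 FPKM in SPA and SA. ADAMTS15 had the opposite depot order, with 14.9 ± 1.85 FPKM in SPA and 18.0 ± 2.29 in SA against 0.665 ± 0.0754 in IMPA and 0.377 ± 0.0722 in IMA. ADAM19 was at 27.7 ± 1.11 and 32.5 ± 2.75 FPKM in IMPA and IMA and at 5.61 ± 0.260 and 4.69 ± 0.526 FPKM in SPA and SA. ADAM33 had means of 0.937 and 0.602 FPKM in IMPA and IMA and of 9.52 and 6.33 FPKM in SPA and SA.

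Genes with the most similar pattern to each of the 10 were found as those with the smallest root mean square difference of centred log2 values over the 20 libraries, and likeness here reflects mostly the 4 group levels. C1R, a complement protease, was nearest to MMP2 at 0.0966 log2 units, against a root mean square of 0.98 for the MMP2 pattern itself, followed by EMX2 (0.153) and ADGRD1 (0.156). HS6ST1 (0.125), OLFML1 (0.127) and OLFML3 (0.142) were nearest to MMP19, whose own pattern measured 0.814. For TIMP1, with an own pattern of 1.22, the nearest were MARCH11 (0.178), LOC108638507 (0.187) and FBLN1 (0.207), and for TIMP3, with 0.705, they were MYEF2 (0.182), MYBL1 (0.182) and PODXL2 (0.21). FEZ1 (0.128) and UACA (0.13) were among the 3 genes nearest to MMP11 (own pattern 0.806). The flatter patterns of MMP14, TIMP2, LOX and LOXL2 measured 0.207, 0.318, 0.278 and 0.436. Their nearest genes were TRIP6 (0.0691), ALKBH5 (0.0709) and FKBP10 (0.0741) for MMP14 and TFE3 (0.0705), DDX31 (0.0743) and CBX6 (0.0835) for TIMP2. For LOX they were HM13 (0.0985), GSE1 (0.107) and SUPT5H (0.11), and for LOXL2 SGCD (0.142), EIF1 (0.147) and NR4A2 (0.159). MMP16, with an own pattern of 0.0938, had nearest genes at 0.0774 for MED10, 0.0804 for SLC38A1 and 0.0821 for KAT7, hardly closer than a flat line.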

How the data were processed

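The authors aligned paired-end reads with HISAT2 2.0.4 to the goat genome (assembly ARS1) and deposited FPKM values per transcript, calculated with StringTie 1.3.1, Ballgown and Cuffdiff, for mRNAs, annotated lncRNAs and newly assembled lncRNAs in 20 libraries. The submitters' processing notes also name GATK 2.6-5. No counts were given, so the fragments behind a value are unknown. All sample columns were used.

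Transcripts of the mRNA table were summed per symbol and used as log2(FPKM + 1) without further scaling. Symbols whose mean FPKM across the 20 libraries reached 1 were tested with moderated variances and a variance trend in limma 3.58.1 (R 4.3.3), each comparison of 2 groups on its own 10 libraries and the interaction over 20. Tables were summarised in Python 3.11.15 with numpy 2.4.6 and pandas 2.3.3 and drawn with matplotlib 3.10.9. The steps were tested on data with known changes. The gene IDs of all 10 genes matched the same symbols in a RefSeq gene table of another assembly version, so no coordinates are given.

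Genes and lists were chosen with earlier results of these data known. Genes outside the 10 were named where they had an adjusted p under 0.05 and an absolute log2 difference of at least 1 between 2 groups, at most 4 per list. MMP9, TIMP4, RECK, MMP23B, LOXL1 and LOXL3 were named after their values were seen. For each of the 10 genes, the 3 tested genes with the smallest root mean square difference of centred log2 values were named. Of the genes that these rules name, 2 are not reported here. The marker lists were skeletal muscle, satellite cell, adipocyte, fibroblast and stromal, smooth muscle and myofibroblast, macrophage, endothelial and proliferation. Markers MYH3 and FABP4 and the listed genes MMP10, MMP21, MMP23 and A2M had no row of that symbol. Groups share replicate numbers 1 to 5, but deviations of same-numbered libraries correlated weakly at most (from -0.242 to 0.122), so the main fit had no block. In IMA against IMPA these correlations were all positive, from 0.042 to 0.121, so a weak pairing there is not excluded. Alternatives were no filter or a minimum mean of 0.1 FPKM, a pseudocount of 0.1, upper-quartile, equal-sum and median-of-ratios scaling, quantile normalization, no variance trend, all 4 groups in 1 fit, the replicate block, transcripts in place of sums, leaving out each library, and leaving out SPA1 and SA5, which lost fewer reads in filtering than the other subcutaneous libraries. By the study's read summaries, the other subcutaneous libraries also lost a larger share of reads in filtering than every intramuscular library. This loss moves with the depot differences, and its part was not tested. LOX from its more abundant transcript alone was added after the data were seen. The lncRNA tables entered only the transcript alternative and the FPKM totals.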

Additional observations from a re-analysis of the deposited data

Results flagged for a closer look

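LOX in SA3, at 158 FPKM, stood apart from the other 4 SA libraries, with a gap to the nearest of 0.759 of the group's range. MMP16 in SPA5, at 2.41 FPKM, stood apart in the same way with a gap of 0.73 of the range. These were 2 of the 40 groups of 5 values examined, and chance flags about 1 in 20 groups.

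The change with induction differed between intramuscular and subcutaneous cells, by the test of that difference, for MMP19 (0.24 log2 units, adjusted p = 0.000713 by limma), TIMP1 (0.20, adjusted p = 0.0171) and TIMP3 (-0.62, adjusted p = 0.000105). MMP19 fell and TIMP1 and TIMP3 rose in all 5 libraries of both depots against every library before induction, so the differences lie in size and not in direction. The myogenic signal of the intramuscular libraries and the higher proliferation markers of SA than of SPA move with these contrasts. So do the lower depth of IMA than of IMPA and the smaller mapped share of reads of SA than of SPA. Their part was not tested.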

How the results depend on the processing

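Of 1185 recomputed values of the 10 genes in the 5 contrasts, each left-out library counted, 1148 kept their direction and their side of the threshold, 7 lost the call, 15 gained it and 15 changed sign, the last without a call on either side. The 3 genes with a differing response became 5 under quantile normalization and 6 under median-of-ratios scaling. The counts for the other contrasts, of the 10 genes and of all genes, moved by less than 1.5 times, and leaving out single libraries gave 8 to 8, 7 to 8, 9 to 9, 9 to 9 and 3 to 4 of the 10 genes and 6362 to 6878, 5441 to 5872, 8334 to 8536, 7964 to 8187 and 6054 to 6381 of all genes, in the order IMA against IMPA, SA against SPA, IMPA against SPA, IMA against SA and interaction. MMP16 turned under quantile normalization to -0.11 in IMPA against SPA, -0.11 in IMA against SA and 0.00872 in the interaction, to 0.0461 in the interaction under median-of-ratios scaling, and in IMA against SA ranged from -0.00696 without SA4 to 0.0592 without IMA3. The LOX interaction turned to 0.000923 under upper-quartile scaling, 0.0296 under quantile normalization, 0.0160 with equal mRNA sums, 0.121 under median-of-ratios scaling and 0.0288 without SPA1 and SA5, and ranged from -0.109 without SA3 to 0.0131 without SA1. Replicate numbers paired the libraries weakly at most. With the replicate block 8, 6, 9, 9 and 3 of the 10 genes and 6826, 5602, 8530, 8059 and 6304 of all genes were called. The one change among the 10 was MMP11 in SA against SPA (adjusted p = 0.0532). The causes of these changes were not tested. With fragment counts unknown, precision at low levels such as those of MMP16 and MMP11 rests on the spread of 5 libraries alone.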
